A study of Rattus norvegicus and Mus musculus with 10 samples.

Results

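The cells described here are the gamma delta T cells of the mouse skull dura, 458 cells that the authors' deposited annotation places in cluster gdTc. They are 458 of 7355 annotated mouse cells and of 28542 annotated cells in the series, whose 21187 rat cells hold no cluster of that name. The EAE library gave 79 of them and came from C57BL/6 animals with experimental autoimmune encephalomyelitis (EAE), an immunization model of multiple sclerosis; 3 mice were pooled, and the disease was active and at its peak. The naive library gave 379 and came from 4 pooled unimmunized C57BL/6 mice. In both, the sort kept leukocytes that expressed CD45 but had not bound CD45 antibody given into the blood, which leaves out cells inside vessels. Single cells were read with droplet RNA sequencing. The sample labels give no age or sex, no EAE antigen and no clinical score, and their condition field reads EAE for both libraries, so the groups follow the titles and the authors' condition table. There is 1 pooled library per condition. No test between conditions is therefore possible, condition cannot be told apart from library, and every interval below covers counting error only.

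Gamma delta T cells carry a T cell receptor made of a gamma and a delta chain in place of alpha and beta chains. In the mouse, cells that use the Vg6 and Vd1 chains leave the thymus around birth, settle in barrier tissues such as skin, lung, gum and the meninges, and are committed to making interleukin 17 (IL-17). They respond to IL-1 beta and IL-23 without recognition of peptide on MHC molecules, and meningeal cells of this kind have been linked to behaviour and memory through IL-17. In EAE, IL-17 from gamma delta cells is known as an early signal that helps CD4 T cells to develop their own inflammatory programme.

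The label held for most cells. Trdc, the constant region gene of the delta chain (chr14:54142851-54148868, GRCm38), had at least 1 UMI (1 counted RNA molecule) in 64 of 79 EAE cells and in 354 of 379 naive cells (72.5% and 85.4% at 1000 UMIs). A UMI of Trdc or of a gamma constant gene was found in 91.1% of EAE cells and 97.9% of naive cells. The cells without one numbered 7 in EAE and 8 in naive, and 5 in each library carried Trac, the alpha constant gene, instead. Cells without Trdc itself numbered 15 in EAE, 12 of them with Trac, and 25 in naive, 15 of them with Trac. Gamma constant UMIs were not confined to the cluster. Tcrg-C4 was found in 1 of 152 EAE and 100 of 353 naive CD4Tc cells, and Tcrg-C2 in 38 of 226 EAE and 42 of 240 naive CD8Tc cells. The cluster held 78.8% of the Trdc UMIs of annotated EAE cells and 95.3% of those of annotated naive cells. CD8Tc cells held 207 and 100 of the others. Barcodes without a cluster held a further 126 Trdc UMIs in EAE and 49 in naive dura. Cxcr6 was found in 74 of 79 EAE cells and 349 of 379 naive cells (49.7% and 64.9% at 1000 UMIs), and Il17a in 22 of 79 and 194 of 379. By level the genes that led the cluster over every other cluster were Cd163l1, Tcrg-C1, Kcnk1, Trdc and Trdv4 in EAE and Cd163l1, Adrb1, Trdc, Il17re and Tcrg-V6 in naive, and 10 of the first 20 were shared. These genes helped to make the cluster, so their lead is a description.

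The libraries differed in depth. EAE gdTc cells had a median of 6640 UMIs (5725 to 24554) and 2107 genes, and naive gdTc cells a median of 4277 UMIs (1007 to 9777) and 1443 genes. No annotated EAE cell of any type had under 5722 UMIs, whereas the naive library reached down to 503. Levels below are CPM, each gene's UMIs scaled to a common total, from the 569307 UMIs summed over EAE gdTc cells and the 1654654 summed over naive gdTc cells. Numbers of cells with a UMI are unthinned unless a share is said to be at 1000 UMIs, that is after thinning every cell to 1000 UMIs; no gdTc cell was shallower. Unthinned numbers favour the deeper EAE library. A gene was counted as higher or lower when it lay past 2-fold with at least 20 UMIs over both sums. Of 6620 such genes, 553 were higher (8.35%) and 557 lower (8.41%) in EAE, and the median log2 ratio over all of them was 0.08. With TMM scaling, which shifts every log2 ratio by -0.15, 390 were higher and 734 lower. After thinning to 1000 UMIs, 218 were higher and 408 lower. Ratios after thinning come from 1 random draw of UMIs per cell. Mitochondrial transcripts took 2.76% of gdTc UMIs in EAE and 1.20% in naive, and ribosomal protein transcripts 28.3% and 24.9%. Of the cell barcodes, 8 occurred in both libraries, 1 of them a gdTc barcode.

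Gamma delta T cells made up a smaller share of the annotated dural leukocytes in EAE. They were 79 of 4579 cells in EAE (1.73%, Clopper-Pearson 95% interval 1.37 to 2.15) and 379 of 2776 in naive dura (13.7%, 12.4 to 15.0), a share 7.91-fold lower in EAE. Against the T, NK and ILC clusters alone the shares were 10.1% of 780 EAE cells (8.10 to 12.5) and 23.5% of 1615 naive cells (21.4 to 25.6), 2.32-fold lower. Among cells with at least 5722 UMIs the share was the same 1.73% in EAE and 28 of 739 cells in naive dura (3.79%, 2.53 to 5.43), 2.20-fold lower. Of the T, NK and ILC cells at that depth it was 10.1% in EAE and 28 of 159 in naive dura (17.6%, 12.0 to 24.4). The direction was the same with each denominator, while its size depended on which cells were counted. A share says nothing of the number of cells per dura.

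The receptor chains differed little between conditions, and every delta and gamma segment gene with enough UMIs was somewhat lower in EAE. Of 6 such genes, none was past 2-fold (list median log2 -0.52, against 0.08 over all genes). Trdc had 2594 CPM in EAE cells and 3450 CPM in naive cells (1.33-fold lower, counting interval 1.26 to 1.41). Trdv4, the delta variable segment known by its protein as Vd1, had 390 CPM in EAE and 465 in naive cells. Tcrg-V6, which encodes Vg6, gave 12 UMIs in EAE cells and 52 in naive cells (21.1 and 31.4 CPM), a ratio whose interval held 1 (1.49-fold lower, 0.785 to 3.07). Reads may miss the variable part of a receptor transcript, so few UMIs there do not count cells that use the segment. The first 300 coding bases of both variable segments are shown because these chains define the receptor known from meningeal cells of this kind (GENCODE M21, GRCm38, with the span of the whole coding sequence; Trdv4 on the plus strand at chr14:54075004-54075515, Tcrg-V6 on the plus strand at chr13:19190368-19190929, each with an intron left out).
Trdv4: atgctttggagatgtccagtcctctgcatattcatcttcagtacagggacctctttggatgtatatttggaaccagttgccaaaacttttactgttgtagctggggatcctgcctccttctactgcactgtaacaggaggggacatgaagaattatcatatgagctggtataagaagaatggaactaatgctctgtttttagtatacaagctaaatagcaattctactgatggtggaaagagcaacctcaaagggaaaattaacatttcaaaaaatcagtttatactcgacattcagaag
Tcrg-V6: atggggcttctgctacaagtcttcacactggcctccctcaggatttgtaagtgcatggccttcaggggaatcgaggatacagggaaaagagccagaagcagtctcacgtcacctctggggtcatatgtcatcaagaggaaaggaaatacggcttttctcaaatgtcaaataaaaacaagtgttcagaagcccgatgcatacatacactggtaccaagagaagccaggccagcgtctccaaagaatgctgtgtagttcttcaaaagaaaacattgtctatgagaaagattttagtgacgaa

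The gamma constant genes are close copies, which limits how far their counts can be separated. Tcrg-C1, the constant gene that Vg6 chains use, had 573 CPM in EAE and 1039 CPM in naive cells (1.81-fold lower, 1.61 to 2.05, and 2.02-fold with TMM scaling). Tcrg-C2 had 77.3 and 109 CPM, and Tcrg-C4 had 77.3 and 114 CPM. The first 90 coding bases of the 3 genes follow, 5' to 3', with the bases that differ from Tcrg-C1 in capitals (Tcrg-C1, plus strand, chr13:19214103-19216615; Tcrg-C2, minus strand, chr13:19305063-19307551; Tcrg-C4, plus strand, chr13:19344558-19352340).
Tcrg-C1: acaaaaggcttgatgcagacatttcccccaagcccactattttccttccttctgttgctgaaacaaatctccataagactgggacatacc
Tcrg-C2: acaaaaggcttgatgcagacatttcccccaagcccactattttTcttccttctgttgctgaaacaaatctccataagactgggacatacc
Tcrg-C4: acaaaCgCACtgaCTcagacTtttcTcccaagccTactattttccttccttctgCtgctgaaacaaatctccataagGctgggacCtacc
In that stretch Tcrg-C2 differed from Tcrg-C1 at 1 base and Tcrg-C4 at 12. Over the coding sequence Tcrg-C1 and Tcrg-C2 were 94.6% identical, and over the last 300 bases of the transcripts 91.1%. Tcrg-C4 matched Tcrg-C1 at 69.9% and 52.3%. Counts of Tcrg-C1 and Tcrg-C2 are therefore uncertain against each other.

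Of 13 CD3 and proximal signalling genes, 1 was higher and 1 lower, near the shares over all genes (8.35% and 8.41%), and neither was past 2-fold against naive cells at EAE depth. Cd3g and Cd3d, chains of the CD3 complex, had 2052 and 964 CPM in EAE cells and 2175 and 1000 CPM in naive cells (ratios 0.943 and 0.964). Cd3e, the epsilon chain, had 543 CPM in EAE and 1139 in naive cells (2.10-fold lower, 1.86 to 2.37), and it was 1.81-fold lower against naive cells at EAE depth, 1.92-fold in cells thinned to 1000 UMIs and just under 2-fold when mitochondrial, ribosomal and stress genes were left out of the total. Lck, a kinase that phosphorylates CD3, had 52.7 and 16.9 CPM (3.11-fold higher, 1.80 to 5.41), but its log2 ratio was -0.11 against the 28 naive cells at EAE depth. Trac stood at 111 CPM in EAE and 94.3 in naive cells.

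**Figure D1:**
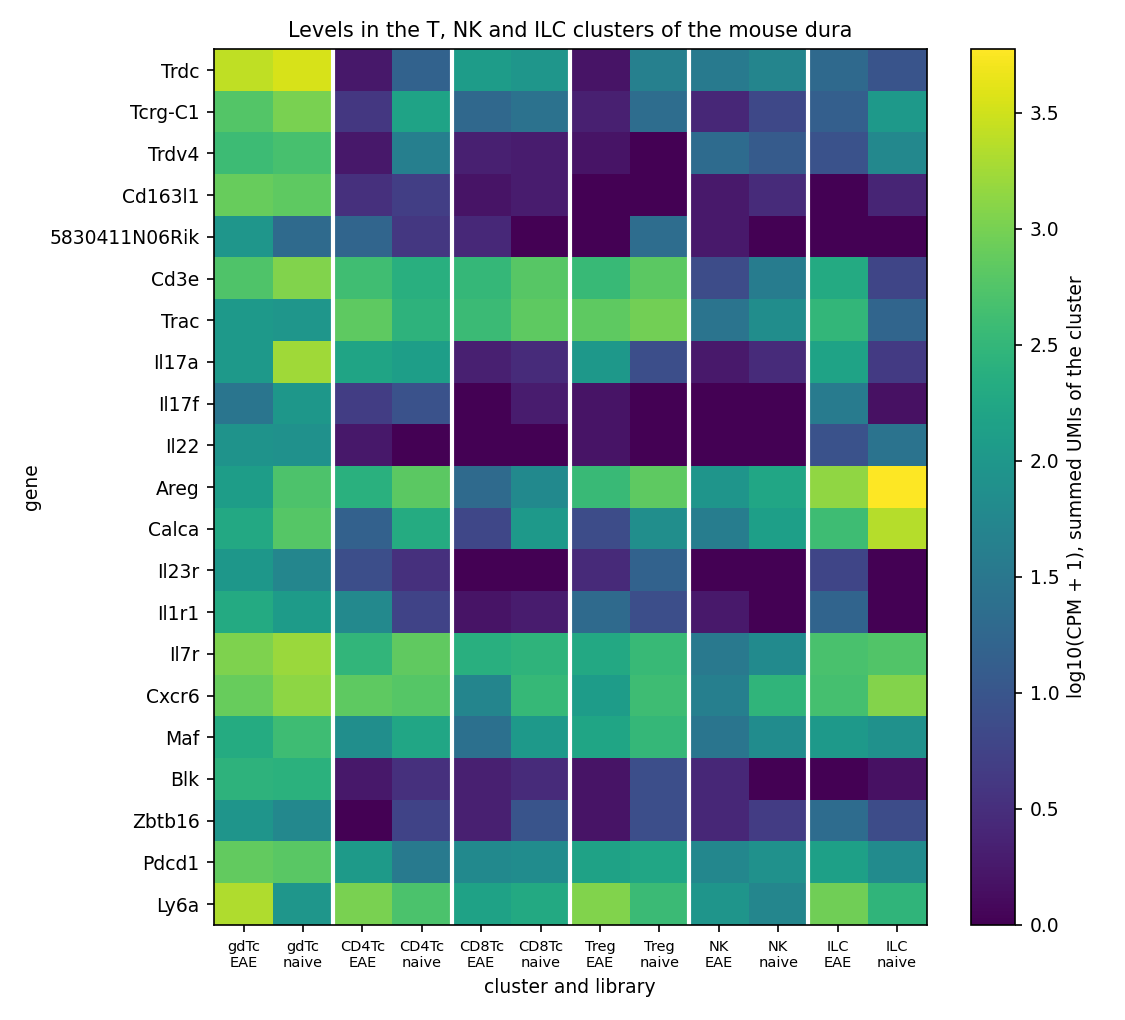
Level of 21 genes (rows) in each T, NK and ILC cluster, EAE to the left of naive, as log10(CPM + 1) of the summed UMIs of the cluster. Trdc, Trdv4, Cd163l1, Il23r and Blk were at their highest in gdTc in both libraries, while Il17a was at its highest in naive gdTc cells (1726 CPM) and Ly6a in EAE gdTc cells (2085 CPM).

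The cells could be divided by a pair of neighbouring scavenger receptor genes. Cd163l1 (SCART1, chr7:140218267-140231145) and 5830411N06Rik (SCART2, chr7:140247284-140300736) lie side by side on the plus strand and encode scavenger receptor cysteine-rich proteins known from mouse gamma delta T cells. Cd163l1 had 776 CPM in EAE and 693 CPM in naive cells, a ratio of 1.12 (1.001 to 1.25), and was found in 56 of 79 EAE cells (70.9%) and 316 of 379 naive cells (83.4%), but in 46.0% and 46.9% at 1000 UMIs. 5830411N06Rik had 94.9 CPM in EAE and 19.3 CPM in naive cells (4.90-fold higher, 3.11 to 7.85), from 54 and 32 UMIs. It was found in 13 of 79 EAE cells (16.5%, 9.06 to 26.5) and 13 of 379 naive cells (3.43%, 1.84 to 5.79), or in 6.93% and 1.47% at 1000 UMIs. No EAE cell and 4 naive cells carried both transcripts. CD4Tc cells carried 5830411N06Rik too, in 7 of 152 EAE and 4 of 353 naive cells.

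Receptor transcripts were counted in each class. Trdv4 was found in 50 of the 56 EAE cells with Cd163l1 alone, in 1 of the 13 with 5830411N06Rik alone and in none of the 10 with neither. In naive cells it was found in 247 of 312 with Cd163l1 alone, in 2 of 9 with 5830411N06Rik alone and in 23 of 54 with neither. With each cell thinned to 2000 UMIs by a random draw, Trdv4 was found in 60.4% of EAE cells with Cd163l1 and 12.9% of those without. In naive cells these shares were 52.4% and 41.9%. Trdc was present in all 56 EAE cells with Cd163l1 alone and in 6 of the 13 with 5830411N06Rik alone, and 7 of these 13 carried Trac. In naive dura it was present in 308 of 312 and in 8 of 9 cells, and 2 of these 9 carried Trac. Among cells with neither gene, Trdc was present in 2 of 10 in EAE and 34 of 54 in naive dura. Trac was present in 6 of these 10 and 17 of these 54 cells. With Cd163l1 alone, Trac was present in 16 of 56 EAE and 46 of 312 naive cells. The level of Trdc was 532 CPM in EAE and 514 CPM in naive cells with 5830411N06Rik alone, and 3391 and 3846 CPM in those with Cd163l1 alone. The level of Tcrg-C1 was 65.1 and 668 CPM in cells with 5830411N06Rik alone, and 744 and 1133 CPM in those with Cd163l1 alone. Cells of 1 library are not replicates, and the small classes rest on 13 and 9 cells.

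**Figure D2:**
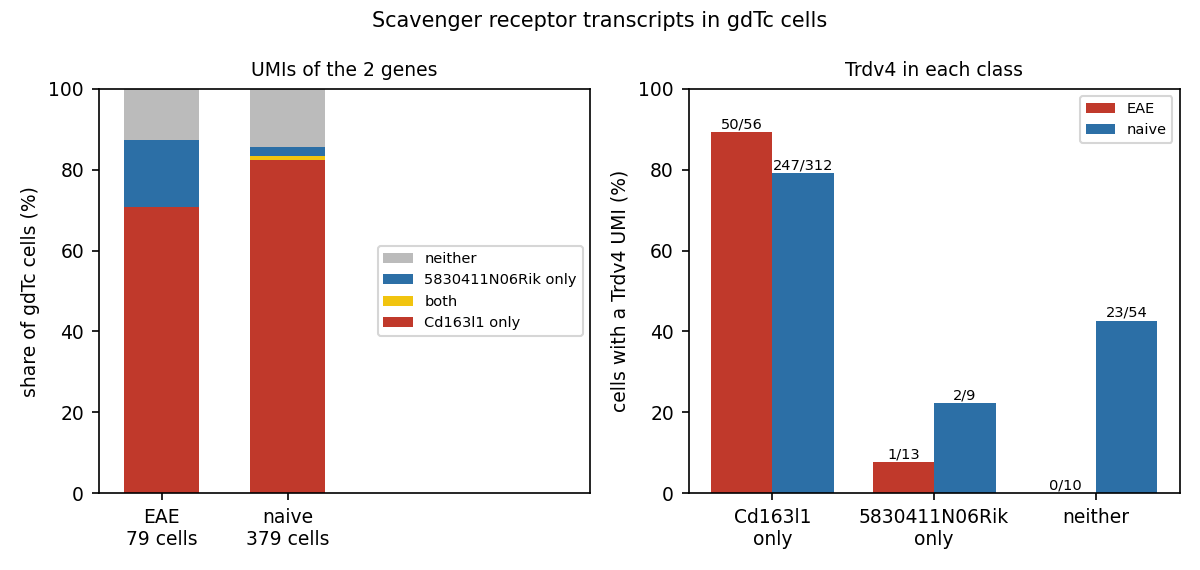
Left, share of gdTc cells with UMIs of Cd163l1, of 5830411N06Rik, of both or of neither, EAE left of naive. Right, share of the cells of each class with a Trdv4 UMI, with the numbers of cells above the bars; all numbers are unthinned. Trdv4 was found in 50 of 56 EAE cells and 247 of 312 naive cells with Cd163l1 alone.

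Il17a, which encodes IL-17A (chr1:20730905-20734496, plus strand), was lower in EAE cells. It had 105 CPM in EAE cells (60 UMIs) and 1726 CPM in naive cells (2856 UMIs), 16.4-fold lower in EAE (12.7 to 21.5). An Il17a UMI was found in 27.8% of EAE cells and 51.2% of naive cells, and in 8.33% and 36.2% once cells were thinned to 1000 UMIs. The same thinned shares were 0.0996% of EAE and 0.252% of naive CD8Tc cells, and no UMI was found in the 25 EAE and 74 naive B cells. Median depth was 6965 and 4137.5 UMIs in CD8Tc cells, close to that of gdTc cells. The UMIs were unevenly spread over cells. In EAE the 8 cells with the most UMIs held 65.0% of them, the highest had 9 UMIs and 57 cells had none. In naive dura the 38 cells with the most UMIs held 65.3%, the highest had 166 UMIs and 185 cells had none. The lower level in EAE thus showed both as fewer cells with a UMI and as fewer UMIs in those that had one.

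The Il17a difference was of like size within narrower sets of cells. It was 16.1-fold lower among cells with a Cd163l1 UMI (56 EAE and 316 naive cells), 15.6-fold among cells with a gamma delta constant UMI and 18.0-fold against the 28 naive cells at EAE depth. Thinning to 1000 UMIs per cell, by a random draw of UMIs, gave 31.2-fold, while the mean of per-cell CPM gave 16.4-fold. It was 15.3-fold lower against the 142 naive cells without Xist and 15.4-fold against the 291 naive cells without Hspa1a or Hspa1b. A naive cell without an Xist UMI need not be male, and the Y-linked gene Ddx3y was found in 23 of 379 naive gdTc cells. The set without Xist therefore does not match the libraries by sex. In other clusters Il17a did not show the same contrast: CD4Tc cells had 159 CPM in EAE and 130 CPM in naive dura. The EAE ILC cluster had 151 CPM and the naive one 3.31 CPM, though EAE ILC cells also carried Cd3e (203 CPM) and Trac (313 CPM). The naive CD4Tc cluster in turn carried Gata3 (480 CPM) and Il1rl1 (201 CPM), genes of ILC2 cells, at 28.3 CPM of Cd4. The difference between clusters was not tested.

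Within each library, other transcripts were counted in cells with and without Il17a. Il17f was found in 3 of 22 EAE cells with Il17a and 2 of the 57 without, and in 39 of 194 naive cells with Il17a and 11 of the 185 without. Trdv4 was found in 16 of 22 and 157 of 194 cells with Il17a, and in 35 of 57 and 115 of 185 cells without it. Csf2 was found in 1 of 22 EAE cells and 9 of 194 naive cells with Il17a, and in 0 of 57 and 18 of 185 cells without. The 1 EAE cell with Csf2 was the deepest EAE gdTc cell, at 24554 UMIs. Deeper cells have more UMIs of any gene, so these counts within a library are a description.

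**Figure D3:**
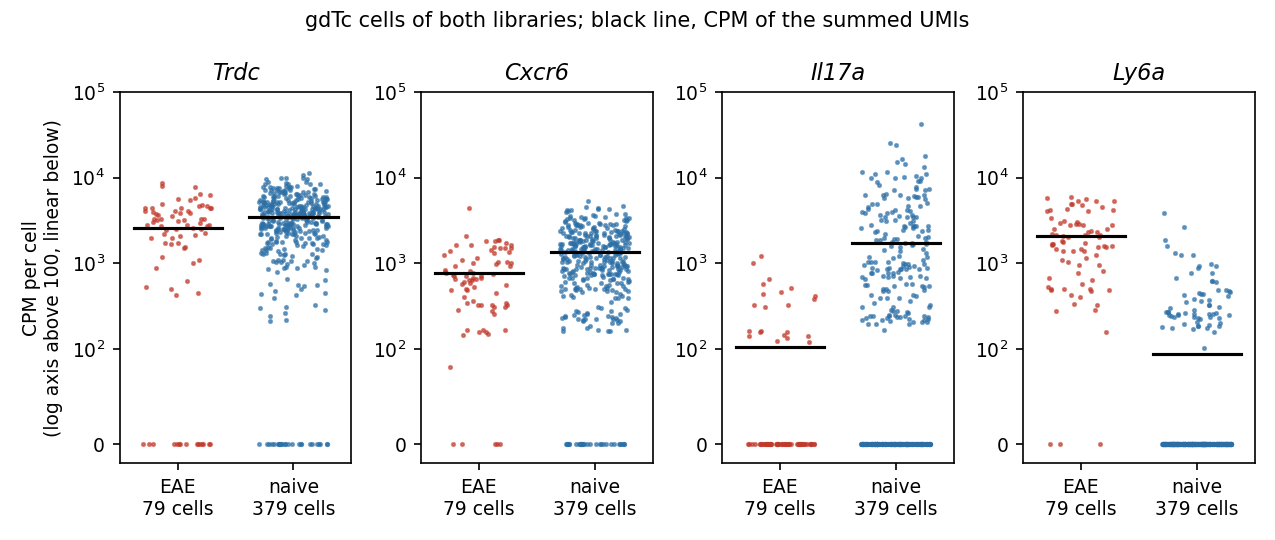
CPM of Trdc, Cxcr6, Il17a and Ly6a in each gdTc cell (dots), EAE left of naive, on an axis that is logarithmic above 100 CPM and linear below; the black line is the CPM of the summed UMIs. For Il17a the naive cells spread up to far higher values than any EAE cell, and for Ly6a 76 of 79 EAE cells but 67 of 379 naive cells had a UMI.

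Other secreted mediators were mostly lower as well. Of 26 effector cytokine and chemokine genes, a list that includes Il17a, 17 had enough UMIs. Of these 12, Il17a among them, were lower and 1 was higher (median log2 -1.63, against 0.08 over all genes, of which 8.41% were lower). Il17f, a neighbour of Il17a on chromosome 1 (chr1:20777146-20790617) and a cytokine of the same family, had 28.1 CPM in EAE and 99.7 in naive cells (3.55-fold lower, 2.12 to 6.35, and 2.57 to 7.47 over the alternatives). Csf2, which encodes GM-CSF, had 10.5 and 97.9 CPM, but all 6 EAE UMIs came from 1 cell and 87 of the 162 naive UMIs from 1 cell (9.29-fold lower, 2.29 to 69.4 over the alternatives). Tnfsf11, which encodes RANK ligand, had 132 and 494 CPM (3.75-fold lower, 2.96 to 4.82). Tnf had 72.0 and 185 CPM (2.57-fold lower, 1.85 to 3.65, and 1.99-fold among cells with Cd163l1). Ccl4, a chemokine, had 14.1 and 92.5 CPM, 6.58-fold lower, but it was 1.57-fold lower among cells with Cd163l1, and its log2 ratio was 0.14 when naive cells with Hspa1a or Hspa1b were left out.

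Il22, Ltb and Ccl5 were not lower past 2-fold. Il22, a cytokine that acts on epithelial cells, had 86.1 CPM in EAE and 79.2 CPM in naive cells (ratio 1.09, 0.766 to 1.52), from 7 and 18 cells (3.98% and 2.24% at 1000 UMIs). Its log2 ratio was -0.74 after thinning, -0.13 by the mean of per-cell CPM and 2.92 against naive cells at EAE depth. Its direction thus turned with the processing, and no CD8Tc or B cell of either library had a UMI of it. Ltb, which encodes lymphotoxin beta, had 741 and 586 CPM (ratio 1.27, 1.13 to 1.42). Ccl5, a chemokine, had 170 CPM in EAE and 19.3 CPM in naive cells (8.81-fold higher, 5.85 to 13.6, and 4.29 to 14.4 over the alternatives). The EAE cell with the most Ccl5 UMIs held 45 of the 97. CD8Tc cells, where Ccl5 is abundant, had 6239 and 6727 CPM.

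Transcripts shared with type 2 innate lymphoid cells (ILC2) were also lower. Areg, which encodes the growth factor amphiregulin, had 123 CPM in EAE gdTc cells and 518 in naive ones (4.21-fold lower, 3.30 to 5.46, and 3.00 to 14.8 over the alternatives), with a UMI in 18 of 79 and 96 of 379 cells (8.33% and 13.9% at 1000 UMIs). Calca, which encodes calcitonin gene-related peptide, had 188 and 595 CPM (3.16-fold lower, 2.59 to 3.90), with a UMI in 20 and 106 cells (10.8% and 20.3% at 1000 UMIs), but 1.27-fold against the 28 naive cells at EAE depth. Il13 gave 1 UMI in EAE cells and 31 in naive cells, and Il5 gave 0 and 47. The ILC2 marker list includes Areg, Calca, Il13 and Il5, so its sum and counts are not separate from their values. Its 11 members summed to 393 CPM in EAE and 1266 CPM in naive gdTc cells, with 3 and 1 members at 0. Of 8 with enough UMIs, 6 were lower and 1 higher, against 8.41% and 8.35% over all genes. Besides Areg, Calca, Il13 and Il5, the lower members were Hes1 (1 and 19 UMIs) and Ptpn13 (2 and 35 UMIs). ILC cells were 53 of the EAE and 507 of the naive cells. Relative to the ILC cluster of their own library, EAE gdTc cells had 46.5% of its Calca level, 8.74% of its Areg, 20.2% of its Csf2 and 0% of its Il5. Naive gdTc cells had 26.1% of its Calca, 8.74% of its Areg, 2.68% of its Csf2 and 1.58% of its Il5. Naive B cells had 165 CPM of Csf2 and 43.3 CPM of Il5, more than naive gdTc cells (97.9 and 28.4 CPM). They also had 315 CPM of Areg and 43.3 CPM of Calca. EAE B cells had no UMI of Csf2 or Il5, 12.2 CPM of Areg and 4.08 CPM of Calca. The part of ILC RNA in these values was not tested.

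Receptors for the cytokines known to drive IL-17 were somewhat higher in EAE cells. Il23r, which encodes the IL-23 receptor, had 98.4 CPM in EAE and 53.2 CPM in naive cells (1.85-fold higher, 1.30 to 2.62, and 2.89-fold against naive cells at EAE depth). Il1r1, the signalling IL-1 receptor, had 204 and 118 CPM (1.73-fold higher, 1.36 to 2.19). It was 2.40-fold higher after thinning and 1.78-fold higher by the mean of per-cell CPM. Neither passed 2-fold over all cells. Il1r2, a decoy receptor for IL-1, had 75.5 CPM in EAE and 2.42 CPM in naive cells (31.2-fold higher, 11.4 to 119.8), from 43 and 4 UMIs; it was 6.66 to 121-fold higher over the alternatives, and was also higher in CD4Tc cells (305 and 3.14 CPM). Il18rap, a subunit of the IL-18 receptor, had 43.9 and 14.5 CPM (3.03-fold higher, 1.66 to 5.54, and 2.65 to 5.21 over the alternatives), while its partner Il18r1 had 204 and 319 CPM (1.57-fold lower, 1.28 to 1.93). Il7r, a receptor for a survival cytokine, had 1086 and 1585 CPM (1.46-fold lower, 1.34 to 1.60). Of 23 cytokine receptor genes with enough UMIs, 2 were higher and 1 lower (median log2 0.12, against 8.35% and 8.41% over all genes).

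Of the transcription factors of the IL-17 lineage described here, Sox13 alone was past 2-fold over all cells. Rora, a nuclear receptor, had 755 CPM in EAE and 917 CPM in naive cells. Maf had 207 and 403 CPM (1.94-fold lower, 1.59 to 2.38). Maf was 2.57-fold lower after thinning and 1.87-fold lower by the mean of per-cell CPM. Zbtb16, which encodes PLZF, had 91.3 and 56.2 CPM (1.63-fold higher, 1.13 to 2.31, but 1.07-fold against naive cells at EAE depth). Sox13 had 15.8 and 34.5 CPM (2.18-fold lower, 1.07 to 5.01), from 9 and 57 UMIs, but 1.77-fold against naive cells without Hspa1a or Hspa1b and 1.49-fold against those without Xist. Blk, a kinase of IL-17-making gamma delta cells, had 276 and 256 CPM. Of the 25 genes of the IL-17 programme with enough UMIs, 4 were lower (Il17a, Il17f, Sox13 and Aqp3) and 1 was higher (5830411N06Rik). Over all genes 8.41% were lower and 8.35% higher. The list median log2 was 0.16, against 0.08 over all genes. Of 27 lymphocyte factors with enough UMIs, 1 was higher (8.35% over all genes) and 4 were lower (8.41% over all genes). Junb among them, a component of the AP-1 complex, had 3337 CPM in EAE and 9329 CPM in naive cells (2.80-fold lower, 2.67 to 2.93), and it was lower in CD8Tc (1503 and 4465 CPM) and NK cells (1669 and 5226 CPM) as well.

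**Figure D4:**
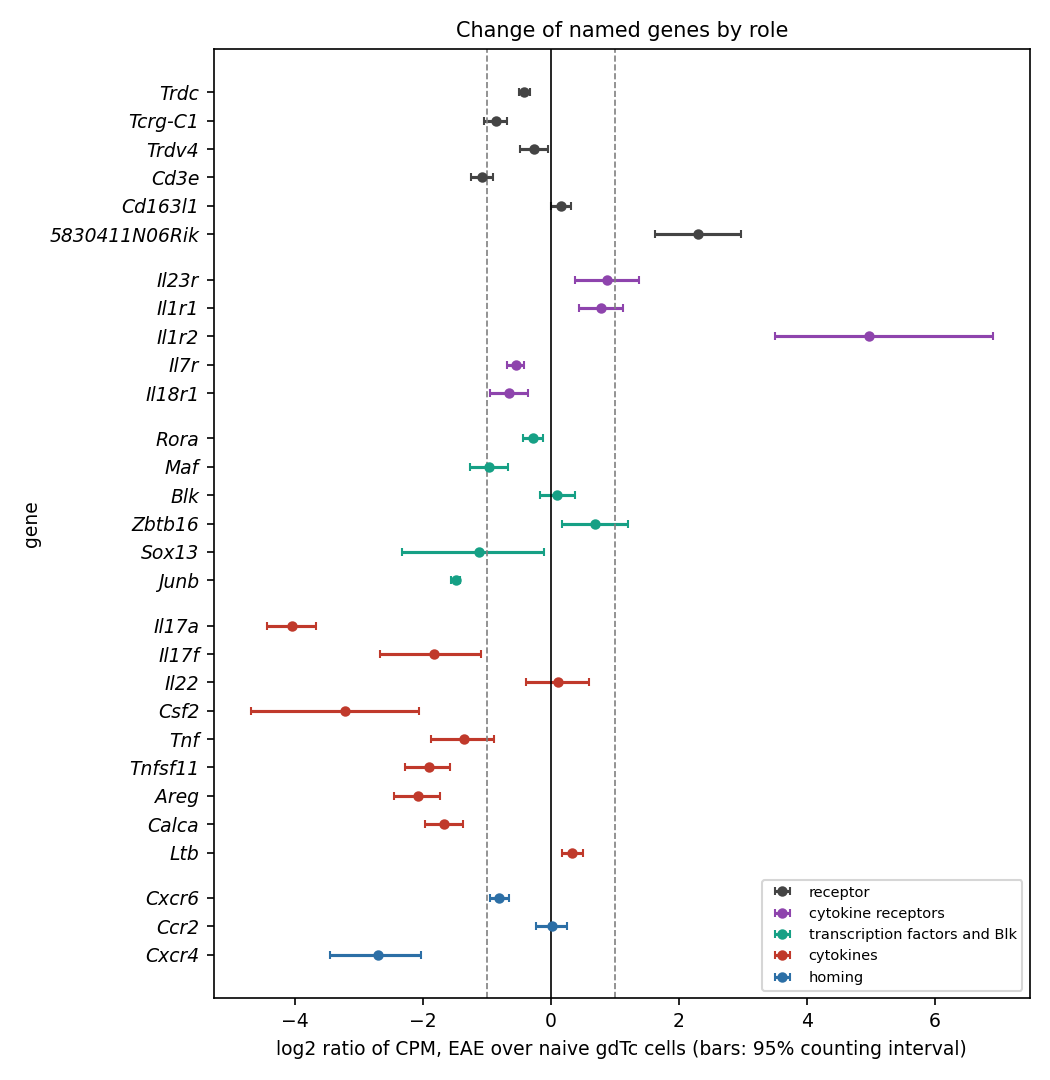
log2 ratio of EAE over naive gdTc cells for 29 genes grouped by role, with 95% counting intervals; dashed lines mark 2-fold. The cytokine genes Il17a (-4.03), Csf2 (-3.22) and Areg (-2.07) lay far to the left, while Il23r (0.89) and Il1r1 (0.79) lay right of 0.

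Genes of homing and residency gave a mixed picture. Cxcr6, a chemokine receptor of tissue-resident T cells (chr9:123806475-123811760), had 778 CPM in EAE and 1359 CPM in naive cells (1.75-fold lower, 1.58 to 1.94), and it was lower in CD8Tc cells too (51.7 and 333 CPM). Cxcr4, a receptor that holds leukocytes in marrow and other niches, had 33.4 and 216 CPM (6.48-fold lower, 4.09 to 10.9, and 2.55-fold against naive cells at EAE depth), with a like contrast in CD4Tc cells (14.7 and 94.3 CPM) and NK cells (75.6 and 301 CPM). Ccr2, a receptor for inflammatory chemokines, had 337 and 332 CPM. Of 10 residency genes with enough UMIs, none was higher and 3 were lower, against 8.35% and 8.41% over all genes. The 3 were Crem (497 and 1230 CPM), Bhlhe40 (177 and 412 CPM) and Rgs1 (731 and 1485 CPM). Against naive cells at EAE depth none of these was past 2-fold (1.79, 1.69 and 1.55-fold lower), and Rgs1 was under 2-fold in 5 of 10 alternatives. Of 6 recirculation genes with enough UMIs, 2 were higher and none lower, beside the same shares over all genes. The 2 were S1pr4 (42.2 and 17.5 CPM) and Cd27 (21.1 and 9.67 CPM), on 24 and 29 UMIs and on 12 and 16 UMIs. S1pr4 was 1.49-fold higher against naive cells at EAE depth. The counting interval of the Cd27 ratio held 1 (2.18-fold higher, 0.941 to 4.91), and 3 of 6 alternatives put it under 2-fold. Icos, a costimulatory receptor, had 884 CPM in EAE and 884 CPM in naive cells.

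Ly6a, which encodes the surface protein Sca-1 and is known to be induced by interferon, marked the EAE cells (chr15:74994877-74998031). It had 2085 CPM in EAE cells and 94.3 CPM in naive cells (22.1-fold higher, 18.7 to 26.3). A UMI was found in 76 of 79 EAE cells (96.2%) and 67 of 379 naive cells (17.7%), or 73.9% and 6.71% at 1000 UMIs. The 3 EAE classes by scavenger receptor were alike in it, with 2063 CPM in Cd163l1 cells, 2204 CPM in 5830411N06Rik cells and 2056 CPM in the others. All 22 EAE cells with Il17a had it, as did 54 of the 57 without. The contrast was smaller, but also past 2-fold, in CD4Tc (1025 and 500 CPM), Treg (1148 and 378 CPM) and ILC cells (893 and 290 CPM). It went the other way, within 2-fold, in CD8Tc cells (149 and 197 CPM). NK cells had 92.5 and 52.7 CPM. These differences between clusters were not tested.

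Interferon-response genes were higher in part. Of 15 type I interferon genes with enough UMIs, 9 were higher and none lower (median log2 1.35, against 0.08 over all genes, of which 8.35% were higher). Ifitm3, which restricts virus entry, had 184 CPM in EAE and 16.9 CPM in naive cells (10.9-fold higher, 7.13 to 17.2, and 6.90-fold without the 1 EAE and 1 naive cell above 2 times the median UMI total of their library). Ifitm2 had 153 and 23.6 CPM and Ifitm1 107 and 0.604 CPM, with 61 UMIs in EAE and 1 in naive cells (177-fold higher, 30.6 to 7116). With the naive side at 0 and set to 3 counts, Ifitm1 was at least 6.30-fold higher against naive cells at EAE depth. Isg15, an early interferon gene, had 121 and 157 CPM (1.29-fold lower, 0.987 to 1.71), with a log2 ratio of 0.25 against naive cells at EAE depth. Of 16 interferon gamma response genes, 4 were higher and none lower (8.35% and 8.41% over all genes; median log2 0.47), among them Psmb8, an immunoproteasome subunit, at 818 and 287 CPM (2.85-fold higher, 2.50 to 3.25). The class I genes H2-K1 (2995 and 2402 CPM), H2-D1 (3016 and 3966 CPM) and B2m (1648 and 2744 CPM) stayed within 2-fold. In CD8Tc cells Psmb8 had 534 and 349 CPM. Ifitm1, Ifitm2 and Ifitm3 are also abundant in myeloid cells, whose marker sums were higher in EAE gdTc cells as well (neutrophil 3764 and 215 CPM, macrophage and monocyte 1570 and 112 CPM); their part in these values was not tested.

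**Figure D5:**
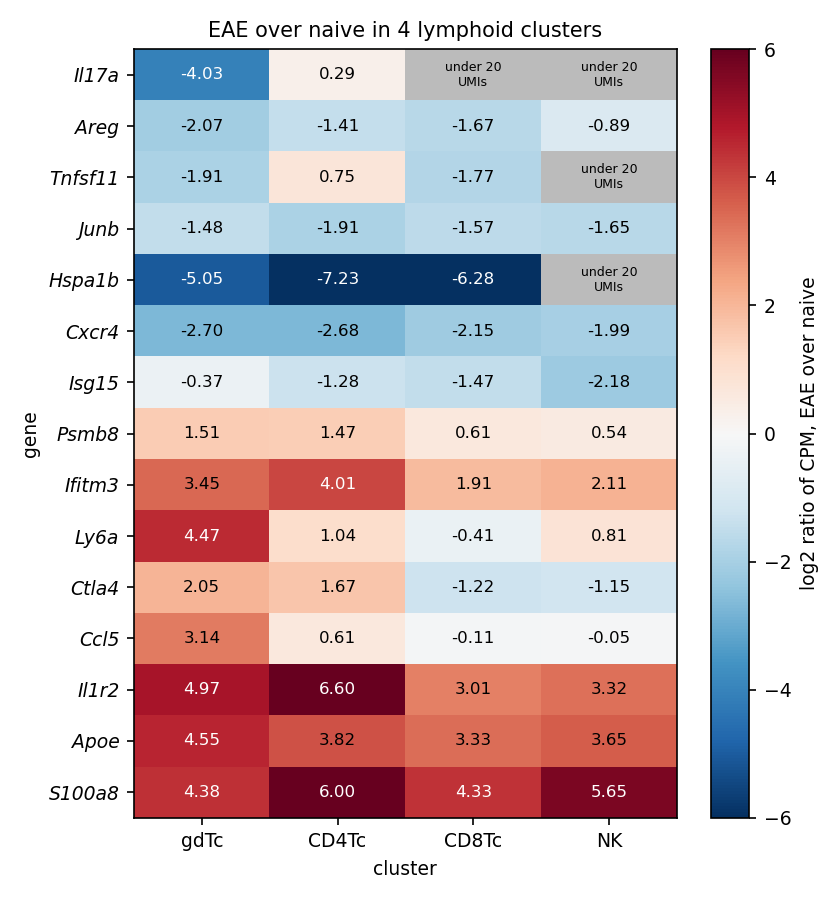
log2 ratio of EAE over naive CPM for 15 genes (rows) in the gdTc, CD4Tc, CD8Tc and NK clusters; grey cells had under 20 UMIs over both libraries. Hspa1b, Junb and Cxcr4 were lower and Apoe and S100a8 higher in each cluster with enough UMIs, while Il17a (-4.03) and Ly6a (4.47) had no value of that size in another of these clusters.

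Immediate early and heat shock genes, which tissue digestion is known to induce, were lower in EAE gdTc cells. Of 28 with enough UMIs, 13 were lower and 1 higher (8.41% and 8.35% over all genes; median log2 -0.89). Hspa1a and Hspa1b, near-identical heat shock genes whose reads may be shared, had 5.27 and 14.1 CPM in EAE and 334 and 465 CPM in naive cells. Fos had 409 and 1502 CPM (3.67-fold lower, 3.21 to 4.22) and Dusp1 209 and 717 CPM (3.43-fold lower, 2.84 to 4.18). Hspa1b was lower in other clusters too, with 5.29 and 410 CPM in CD8Tc cells and 1.55 and 233 CPM in CD4Tc cells. Of genes that feed back on NF-kB signalling, 1 of 19 was lower, against 8.41% of all genes. It was Tnfaip3 (232 and 552 CPM), and it was 1.57-fold lower against naive cells at EAE depth. Nfkbia had 1497 and 2882 CPM (1.93-fold lower, 1.79 to 2.07, and 2.14-fold with TMM scaling). Over the 10 alternatives that select or rescale cells, Fos was 3.45 to 5.16-fold lower and Junb 2.38 to 3.11-fold lower.

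Pdcd1, which encodes PD-1, had 743 CPM in EAE and 635 CPM in naive cells, a level that in EAE was 5.06-fold that of the next cluster (Treg, 147 CPM). Ctla4, another checkpoint receptor, had 170 and 41.1 CPM (4.15-fold higher, 3.01 to 5.74, and 2.27-fold after thinning). Of 17 genes of glycolysis and hypoxia, 3 were higher and 2 lower, against 8.35% and 8.41% over all genes: Pkm had 722 and 348 CPM (2.08-fold higher, 1.83 to 2.36), Tpi1 98.4 and 32.6 CPM (3.01-fold higher, 2.04 to 4.46, but 1.93-fold against naive cells at EAE depth), Gapdh 1562 and 1050 CPM and Ldha 583 and 576 CPM. Pkm was under 2-fold in 3 of 10 alternatives (lowest 1.87 with TMM scaling). Of 20 adhesion genes, 2 were higher, near the 8.35% over all genes, and none was lower (8.41% over all genes). Lgals3 among them, which encodes galectin 3, had 348 and 46.5 CPM (7.47-fold higher, 5.72 to 9.86, but 1.98-fold against naive cells at EAE depth). S100a6 had 3919 and 3921 CPM. Mki67, a marker of dividing cells, gave 2 UMIs in EAE and 2 in naive cells. Of 9 proliferation genes with enough UMIs, 2 were higher and 3 lower, against 8.35% and 8.41% over all genes.

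Neutrophil, macrophage and dendritic cell transcripts summed higher in EAE in gdTc and in each of CD4Tc, CD8Tc, Treg, NK and ILC cells. Neutrophil markers summed to 3764 CPM in EAE and 215 CPM in naive gdTc cells, and to 3823 and 230 CPM in CD8Tc cells. All 8 members with enough UMIs were higher (8.35% over all genes), with S100a8 at 1273 and 61.0 CPM and Lcn2 at 209 and 3.63 CPM. Macrophage and monocyte markers summed to 1570 and 112 CPM in gdTc cells, with 1 of 15 members at 0 in EAE and 2 in naive cells, and Apoe had 495 and 21.2 CPM. Dendritic markers summed to 2730 and 534 CPM; Cd74 among them had 1597 and 299 CPM (5.34-fold higher), but 1.96-fold without the 1 EAE cell of 24554 UMIs and 1 naive cell. NK markers summed to 8.78 and 8.46 CPM, with 7 and 6 of 10 members at 0. B cell markers summed to 174 and 334 CPM, with 4 and 2 of 10 members at 0. The part of these transcripts in the values above was not tested.

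The libraries also differed in X- and Y-linked transcripts. Xist, transcribed from the inactive X chromosome, gave 0 UMIs in 79 EAE gdTc cells and 577 UMIs in 237 of 379 naive gdTc cells, and 0 and 3675 UMIs over all annotated cells. Ddx3y, a Y-linked gene, was found in 38 of 79 EAE and 23 of 379 naive gdTc cells. Sex is not given in the labels, and sex and condition cannot be told apart here. Besides Xist, Hspa1a and Hspa1b, the lowest ratios among genes with at least 50 UMIs were those of Rapsn (1 and 90 UMIs), Tpbg (1 and 56) and Gm26669 (2 and 107), and besides Ifitm1, Ly6a, Apoe, Lcn2 and S100a8 the highest was that of Ltf (54 and 3 UMIs), which encodes the neutrophil protein lactoferrin.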

How the data were processed

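Mouse skull dura leukocytes of 2 pooled libraries (EAE, 3 mice; naive, 4 mice) were used. The deposited matrix holds raw UMI counts per gene and cell, made with Cell Ranger 3.1.0 on mm10 per the submitters' processing notes; filters before deposit are not given in the sources used here. Cluster and condition names are the authors' deposited annotation. The authors' deposited B cell receptor contig tables were used for UMI counts and barcodes only.

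Counts were summed over the gdTc cells of a library and given as CPM, with the ratio of EAE over naive and its exact conditional binomial 95% interval. For a log2 ratio, a side without counts took the floor of 3 counts per group. Called genes lay past 2-fold with at least 20 UMIs over both sums. Shares have Clopper-Pearson 95% intervals. Numbers of cells with a UMI are unthinned; shares at 1000 UMIs are expectations after thinning each cell. Intervals cover counting error only. There is no replicate, so no p-value is given. The ratio function was tested on simulated data. No doublet caller was run and all annotated cells were kept.

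The members, gene lists and genes named here were chosen with earlier results of these data known. Named genes are Trdc, Il17a and Cxcr6, up to 4 members of each list with the most UMIs and the 2 with the largest ratio, and the 6 highest and 6 lowest ratios among genes with at least 50 UMIs. Further members named beside them (Il17f, Il22, Csf2, Calca, Tnf, Sox13, Zbtb16, Blk, Cd163l1 and others) were chosen after their values were seen. Coordinates and sequences are from GENCODE M21 (GRCm38). Alternatives were edgeR 4.0.16 TMM scaling in R 4.3.3, per-cell means, other depths, cell subsets, filters, totals and folds. Python 3.11.15, numpy 2.4.6, pandas 2.3.3, scipy 1.17.1 and Biopython 1.88 were used. Some members of these lists are not reported here.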

Additional observations from a re-analysis of the deposited data

Results flagged for a closer look

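Ctla4 moved in opposite directions in 2 T cell clusters. Its log2 ratio of EAE over naive was 2.05 in gdTc cells (170 and 41.1 CPM) and -1.22 in CD8Tc cells (23.5 and 54.9 CPM). Cd27, a costimulatory receptor, had a log2 ratio of 1.12 in gdTc cells (21.1 and 9.67 CPM, from 12 and 16 UMIs) and of -3.46 in CD4Tc cells (5.43 and 59.7 CPM). Neither difference was tested, since there is 1 library per condition.

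B cell receptor contigs were found on gamma delta T cell barcodes of the EAE library: 13 of 79 (16.5%, 9.06 to 26.5), all 13 with a productive kappa chain and 2 with a productive heavy chain. The share was 15.1% of CD4Tc, 16.8% of CD8Tc, 16.2% of NK, 9.43% of ILC (5 of 53) and 18.9% of myeloid1 barcodes and 72.0% of B cells. The naive contig table matched no barcode of naive gdTc cells or of naive B cells (0 of 379 and 0 of 74), nor of any other naive cluster examined, so it gives no share, and the sample descriptions of the 2 contig tables name each other's library.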

How the results depend on the processing

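No paired analysis was possible because each condition is 1 pooled library. Of 114 named genes, 55 lay past 2-fold, and 53 of these kept their direction and 37 also stayed past 2-fold in each of up to 10 alternatives in which they had enough UMIs. Lck turned to -0.11 (log2) against naive cells at EAE depth and Ccl4 to 0.14 without naive cells carrying Hspa1a or Hspa1b; the cause was not tested. Il17a stayed 15.3 to 31.2-fold lower and Ly6a 18.0 to 30.6-fold higher, with the 31.2 and the 18.0 from the random draw of thinning. The numbers of genes higher and lower were 218 and 408 after thinning to 1000 UMIs, 516 and 266 against naive cells at EAE depth, 390 and 734 with TMM scaling, 657 and 485 with mitochondrial, ribosomal and stress genes left out of the total, 217 and 312 with at least 50 UMIs, 3245 and 958 with no filter beyond 1 UMI, and 95 and 95 at 4-fold. TMM scaling shifted all log2 ratios by -0.15, to a median of -0.07. The gdTc share was 10.1% in EAE and 23.5% in naive dura over the T, NK and ILC clusters, and in naive dura 3.79% at EAE depth and 12.1% of all barcodes. Cells with an Il17a UMI were 27.8% in EAE and 51.2% in naive dura without thinning, and 14.0% and 44.0% at 2000 UMIs. The alternative without cells carrying 2 UMIs of B cell, neutrophil, macrophage or mast cell markers left 0 EAE cells and was not run. The choices of cells by Cd163l1, Hspa1a or Hspa1b, Xist and high UMI total were added after the data were seen.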
